A study of Mus musculus with 3 samples.

Results

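The V and J segments of the T cell receptor alpha locus (Tra) are described here in regulatory T cells of a mouse aged 12 weeks. These CD4 cells hold immune responses in check, and the labels call this population inflammation-experienced. Members were the rows of the M21 gene tables whose symbol starts with Trav or Traj, 188 of 55536 genes. They comprised 128 Trav rows, of which 108 were annotated as genes and 20 as pseudogenes, and 60 Traj rows, of which 51 were genes and 9 pseudogenes. All lie on the plus strand of mouse chromosome 14 (assembly mm10), upstream of the constant gene Trac at chr14:54220521-54224206. Polyadenylated RNA of 1 biosample from 1 donor was sequenced as 3 libraries labelled technical replicates of a single biological replicate, so there was 1 group and no contrast of conditions. The sources used here give no strain, inflammatory treatment or sorting gate.

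An alpha chain gene is assembled in the thymus by the RAG recombinase, which joins a V segment to a J segment. Transcription starts at the promoter of the joined V, and splicing links the J to the constant exons, so 1 messenger RNA carries 1 V, 1 J and the constant region. A locus can rearrange repeatedly, using V segments farther upstream and J segments farther downstream at each round. In mice of several strains a large block of V segments has been duplicated, and the copies carry the letter d or n in their symbols. A dv in a symbol marks a segment that can also join the delta locus, which lies between the V and J segments of the alpha locus.

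The 3 libraries held 35592206, 31611422 and 37728241 expected counts in gene rows. Regulatory T cell markers were present: Foxp3, the factor that defines the lineage, reached 97.6 ± 1.04 TPM, and Cd4 reached 379.6 ± 10.4 TPM (SD, n = 3 libraries, as for all later errors). Library 3 stood apart through 5 salivary gland transcripts, Bpifa2, Smr3a, Amy1, Car6 and Pip, which took 3.16% of its counts, against 0.000283% in library 1 and 0.000676% in library 2. B cell transcripts were low but present, with Cd79a at 16.7 ± 1.68 TPM, Cd79b at 30.4 ± 1.49 TPM and Ms4a1 at 5.28 ± 1.78 TPM. Of the CD8 markers, Cd8a lay at 1.39, 3.15 and 0.67 TPM and Cd8b1 at 18.0, 23.4 and 16.2 TPM. In bulk RNA, fewer cells that use a segment and less RNA per cell cannot be told apart.

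J segments are short, and their sequences show how little of each a read could cover. The rows of the J genes were 55 to 66 bases long, and the effective length in the files was 49 bases below the length, so a read had 6 to 17 starting positions within a J gene row. The first 4 sequences are the J segments of highest count share, and Traj33 is the J of mucosal-associated invariant T cells. Traj41, Traj46 and Traj36 are shown because they were at or near 0. Capitals mark the letters TTNGG, then 4 bases of any kind, then GG, the bases that encode the conserved Phe-Gly-X-Gly of a J segment, searched on the coding strand. Sequences are those of the GENCODE M21 transcripts, at chr14:54196081-54196140 for Traj23, chr14:54200777-54200842 for Traj18, chr14:54201775-54201837 for Traj17, chr14:54192303-54192361 for Traj27, chr14:54185358-54185414 for Traj33, chr14:54176271-54176325 for Traj41, chr14:54172336-54172398 for Traj46 and chr14:54182402-54182464 for Traj36.
Traj23: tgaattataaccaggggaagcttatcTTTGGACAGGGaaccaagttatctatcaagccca
Traj18: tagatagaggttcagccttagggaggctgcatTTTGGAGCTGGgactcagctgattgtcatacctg
Traj17: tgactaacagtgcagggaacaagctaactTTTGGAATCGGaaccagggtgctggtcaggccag
Traj27: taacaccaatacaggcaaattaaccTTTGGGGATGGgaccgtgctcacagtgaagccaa
Traj33: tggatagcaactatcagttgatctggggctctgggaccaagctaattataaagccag
Traj41: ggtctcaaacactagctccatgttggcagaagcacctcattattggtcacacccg
Traj46: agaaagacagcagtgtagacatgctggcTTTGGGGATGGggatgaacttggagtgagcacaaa
Traj36: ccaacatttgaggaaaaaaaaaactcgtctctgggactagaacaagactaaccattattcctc

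V segments are longer, but many copies are identical or nearly so, which sets what their counts mean. The ends of 2 pairs of rows and a 60-base stretch of another pair are shown. In the first 2 pairs the shorter row lies wholly inside the longer one, and the capital is the last base of the longer row, which the shorter row lacks. In the last pair the capital marks the base that differs. Trav7d-2 is shown at chr14:52684432-52684472 and Trav7-2 at chr14:53391103-53391142, Trav11 at chr14:53519819-53519859 and Trav11d at chr14:52824873-52824912, and Trav9-1 at chr14:53488350-53488409 and Trav9d-1 at chr14:52792560-52792619. Over their 337 aligned bases, Trav9-1 and Trav9d-1 differ at 2.
Trav7d-2: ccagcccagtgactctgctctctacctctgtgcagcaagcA
Trav7-2: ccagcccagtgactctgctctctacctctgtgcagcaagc
Trav11: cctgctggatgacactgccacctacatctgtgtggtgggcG
Trav11d: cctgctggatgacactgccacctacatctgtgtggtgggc
Trav9-1: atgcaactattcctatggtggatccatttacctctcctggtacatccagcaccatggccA
Trav9d-1: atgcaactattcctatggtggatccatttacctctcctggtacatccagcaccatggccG

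Per length, J and constant sequence of the alpha locus stood at like levels, and V sequence lower. Trav rows summed to 12375, 11536 and 13050 expected counts in libraries 1 to 3, Traj rows to 709, 635 and 749, and Trac to 47031, 45249 and 51765. Per length, the Trav rows summed to 1790 ± 80.1 TPM, the Traj rows to 2785 ± 72.8 TPM and Trac to 2884 ± 174 TPM. The beta chain locus was higher at V and constant segments, with 2455 ± 96.5 TPM over 35 Trbv rows and 5390 ± 314 TPM over Trbc1 and Trbc2, while 14 Trbj rows summed to 1739 ± 372 TPM. The delta constant gene Trdc, a marker of gamma delta T cells, lay at 2.57 ± 1.27 TPM, and 6 Trdv rows at 11.9 ± 3.47 TPM. Reads that cross from V into J or from J into the constant exons have no row of their own here, and the sources used here do not say how they were assigned.

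Nearly all annotated V genes were represented. Counts were above 0 in every library for 99 of 128 Trav rows, and 11 rows were at 0 in all 3, of which 8 were pseudogenes. The other 3 were Trav18, Trav11 and Trav12d-3. No sequence of Trav18 is shared with another row, so its 0 counts allow a share of up to 0.0242%, 0.0260% and 0.0230% of Trav counts in libraries 1 to 3 (3 counts per library, for counting error only). Trav11 and Trav12d-3 each overlap another row almost completely, and their zeros are taken up below. Pseudogene rows held 0.976 ± 0.120% of Trav counts. The highest of them was Trav8-2 with 85.6, 40.7 and 68.8 counts, followed by Trav9n-1 with 10.9, 43.5 and 15.2 and Trav13-3 with 11.7, 33.6 and 10.1. Library 2 was the lowest for Trav8-2 and the highest for Trav9n-1 and Trav13-3.

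No V segment dominated. The highest share belonged to Trav9-1, with 610.9, 336.4 and 734.6 expected counts in libraries 1 to 3, or 4.49 ± 1.41% of Trav counts. Library 2 lay well below the other 2 for this segment. In the M4 counts it was not the first, with 2.20% against 4.64% for Trav3-3. Trav7-4 had 374.3, 523.2 and 308.9 counts (3.31% on average), and here library 2 was the highest. Trav12n-3 followed with 348.4, 416.4 and 280.6 counts (2.86%) and Trav3-3 with 271.2, 224.8 and 486.7 (2.62%). Trav4-4-dv10, which can also join the delta locus, had 340.7, 292.6 and 267.7 counts (2.45%). The other leading rows were Trav14d-3-dv8 (2.33%), Trav14n-3 (2.26%), Trav14-2 (2.19%), Trav5-4 (2.06%), Trav14d-1 and Trav14n-1 (1.91% each) and Trav7d-2 (1.84%). The 10 highest rows of each library together held 28.2 ± 0.298% of Trav counts, and 22.7 ± 0.577 rows were needed to reach 50% of them.

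The 4 leading families of V segments together carried most of the counts. The 13 rows of Trav7 held 14.9 ± 1.38% of Trav counts, the 9 of Trav14 held 14.8 ± 2.24%, the 11 of Trav9 held 11.4 ± 1.26% and the 15 of Trav6 held 10.8 ± 2.22%. Per row, Trav14 led with a mean of 1.64%, followed by Trav16 with 1.23% and Trav17, a family of 1 row, with 1.22%. The lowest large family was Trav15, whose 9 rows, 3 of them pseudogenes, held 0.829 ± 0.258%. The 10 rows with dv in their symbol held 8.92 ± 0.806%.

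Shares were higher towards the J side of the V array. The 128 Trav rows, in order along the chromosome, were cut into distal, middle and proximal groups of 42, 43 and 43 rows. The distal group, from Trav1 to Trav13d-3 (1792 to 1187 kb upstream of Trac), held 24.3%, 20.0% and 25.4% of Trav counts in libraries 1 to 3. The middle group, from Trav8d-2 to Trav7-3 (1178 to 777 kb upstream), held 29.5%, 34.8% and 26.5%. The proximal group, from Trav6-4 to Trav23 (766 to 243 kb upstream), held 46.2%, 45.2% and 48.2%. The proximal group was the highest and the distal group the lowest in every library, with no overlap between the groups' values. The mean share per gene row was 0.627% in the distal group, 0.834% in the middle and 1.31% in the proximal one. The distal and middle groups hold the duplicated blocks, with 34 and 39 rows that carry d or n, and the proximal group has none. Of 17 pairs of identical Trav rows, 16 join a distal to a middle row and 1 joins a distal to a proximal row, so the split between distal and middle rests on how counts were divided. The proximal share is not free of this either. The proximal rows Trav7-4 and Trav9-1 share 75.1% and 53.9% of their windows with the distal rows Trav7d-4 and Trav9d-1. In the M4 counts the proximal group held 67.2%. The rows nearest to the J segments were mixed: Trav18 and the pseudogene Trav22 were at 0, Trav19 had 79, 91 and 48 counts, Trav21-dv12 had 90, 61 and 109, and Trav23, the last V, had 21, 5 and 0.

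**Figure D1:**
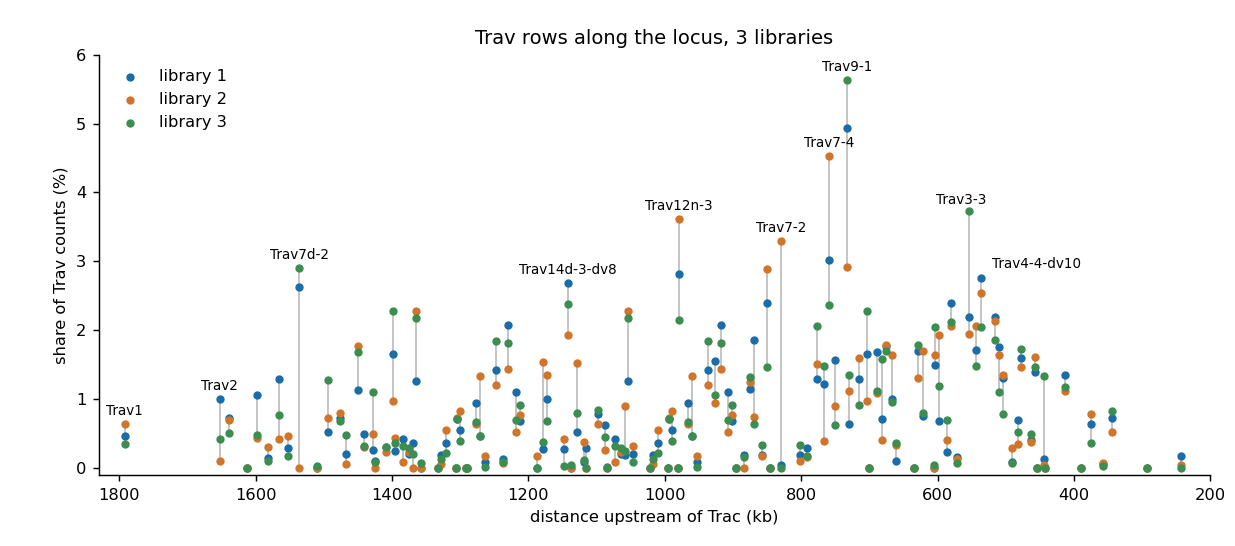
Share of Trav counts (%) of each of the 128 Trav rows against its distance upstream of Trac (kb), with 1 point per library and a grey line from the lowest to the highest library. Trav9-1 reaches 5.63% in library 3, and Trav7d-2 and Trav7-2 trade places between libraries.

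Most V counts lay in rows that have a copy. Rows with the letter d or n, together with rows that have such a partner, numbered 111 of 128 and held 93.2 ± 1.21% of Trav counts. Rows without a letter held 53.3 ± 0.269%, d rows 23.9 ± 1.98% and n rows 22.8 ± 2.13%. Every 50-base window of each row, 50 bases being the read length that the effective lengths imply, was looked up in all other M21 transcripts on both strands. No window was unique in 42 Trav rows, which held 26.5 ± 1.40% of Trav counts. Only 10 rows were unique throughout: Trav1, Trav2, Trav5-1, Trav17, Trav18, Trav19, Trav20, Trav21-dv12, Trav22 and Trav23, with 4.29 ± 1.02% of the counts.

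The posterior standard deviation (SD) in the files, the authors' measure of how uncertain the division of reads among rows was, followed this uniqueness. It is given here as a multiple of the square root of the posterior mean count, which would be 1 for counting noise of that count. Among rows with a mean count of at least 10, the median multiple was 4.27 in the rows with no unique window, 1.04 in rows with up to 50% unique windows, 0.509 in rows above 50% and 0 in rows that were unique throughout. The highest values belonged to Trav4n-4 (8.80) and its identical copy Trav4d-4 (8.57), each listed at 257.3, 165.5 and 236.5 counts. Trav6d-6 (7.26) and Trav6-6 (7.17) were each listed at 204.4, 112.1 and 297.9, Trav14d-1 (6.61) and Trav14n-1 at 156.9, 263.3 and 283.6, and Trav6d-7 (6.53) and Trav6n-7 at 84.8, 89.8 and 119.8. In all 17 identical pairs, which held 24.6% of Trav counts, both rows were given the same expected count in every library (within 0.01), so those values are a sum divided evenly and not a measurement of either copy. Trav9-1 had a multiple of only 0.456, with 40.4% unique windows, although most of its other windows are shared with Trav9d-1, which had 32.6, 57.8 and 143.2 counts. Trav9-1 is annotated at 398 bases and Trav9d-1 at 337, so some windows of Trav9-1 have no counterpart in the annotated Trav9d-1. The shorter Trav9d-1 still had 31.9% unique windows, so the bases that differ also separate the 2 rows. How much of the low multiple rests on annotated length was not tested. Reads from windows without an annotated counterpart are not shown to have come from Trav9-1.

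**Figure D2:**
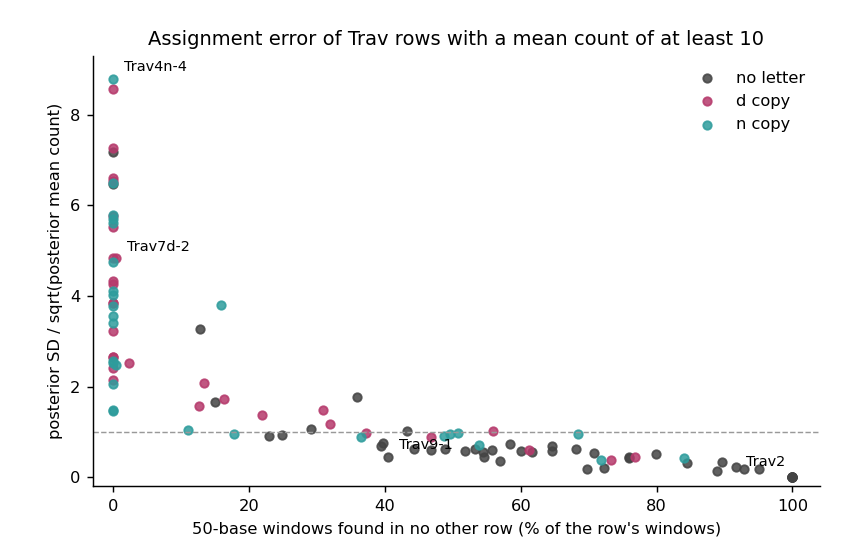
Posterior SD divided by the square root of the posterior mean count (no unit) against the percent of a row's 50-base windows found in no other transcript, for Trav rows with a mean count of at least 10, coloured by the letter in the symbol. The dashed line marks 1, the size of counting noise. Rows with no unique window spread from 1.47 to 8.80 and rows unique throughout sit at 0.

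In 3 cases a Trav row lies wholly inside another row, and the expected counts of such pairs were given nearly whole to 1 of the rows. Trav7-2, whose sequence is that of Trav7d-2 without its last base, was listed at 5.95, 379.4 and 0 counts, and Trav7d-2 at 325.7, 0 and 378.2. Each row thus seemed to appear or vanish between libraries, but their sums were 331.7, 379.4 and 378.2. The summed pair still differed between libraries, with a scaled ratio of 1.33 (adjusted p = 0.00151, chi-square test). The posterior mean counts put both rows above 0 in every library, with 125.3, 196.3 and 58.2 for Trav7-2 and 206.5, 183.2 and 319.9 for Trav7d-2. Trav12d-3 was listed at 0 in all libraries beside Trav12n-3, which is longer by 6 bases at the start, while its posterior means were 49.1, 53.4 and 61.9. The place of Trav12n-3 among the leading rows includes whatever reads came from Trav12d-3.

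The invariant V segment of natural killer T cells was divided in the same way. Trav11d, 1 base shorter than Trav11, was listed at 31.6, 51.0 and 47.0 counts and Trav11 at 0 in all 3 libraries. The posterior means were 17.8, 26.3 and 24.4 for Trav11d and 13.6, 24.4 and 22.5 for Trav11, close to an even division. Trav11 is thus absent by its expected counts alone, while the pair together held 31.6, 51.0 and 47.0 counts, and the annotated sequences differ only at the last base.

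**Figure D3:**
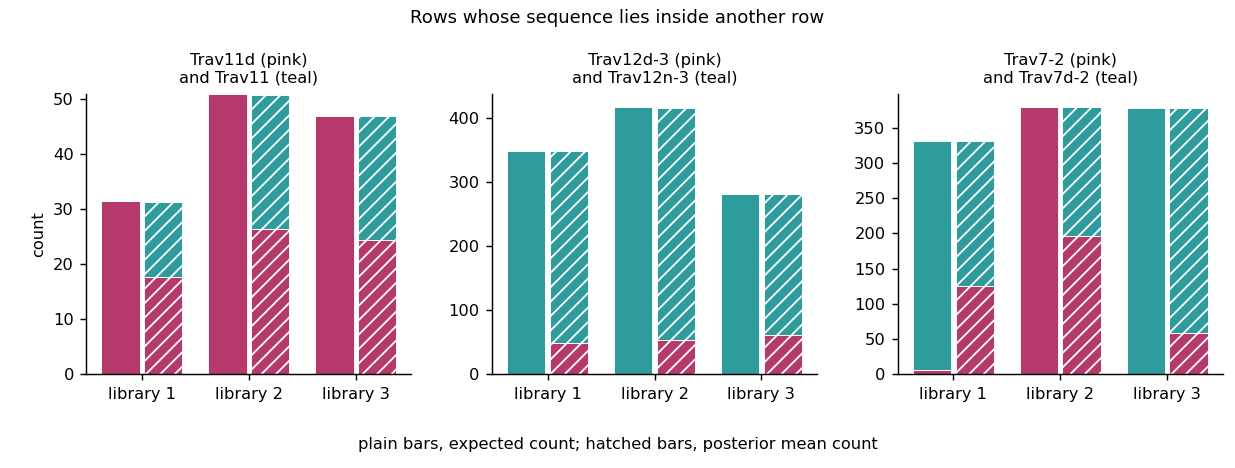
Counts of 3 pairs of Trav rows in each library (1 panel per pair, stacked bars in counts), with plain bars for expected counts and hatched bars for posterior mean counts. The plain bars are nearly all of 1 colour in each library, the hatched ones hold both.

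V genes of the locus without a Trav symbol share sequence with named ones. C920008G01Rik, annotated as a V gene of the locus, shares 331 of the 332 windows of Trav7n-6. Trav7n-6 was listed at 0, 0 and 0.31 counts with posterior means of 69.4, 80.6 and 76.5, and C920008G01Rik at 138.9, 185.5 and 186.1 counts with posterior means of 67.8, 103.8 and 108.9. It is not a member and was chosen for mention after its values were seen, as were B230359F08Rik, another such V gene with 7.96, 8 and 13.4 counts, and the antisense genes Gm30214 and Gm43650. These antisense genes overlap the regions of Trav13d-3 and Trav13n-3, and the sources used here do not say whether counting used strand, so the counts of those Trav rows are uncertain.

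All but a few of the J genes had counts, and none dominated. Whether a counted read came from a joined J segment cannot be told from these counts. Counts were above 0 in every library for 48 of 60 Traj rows, and 6 were at 0 in all 3, of which 5 were pseudogenes. The exception was Traj41, where a count of 0 allows a share of up to 0.423%, 0.472% and 0.401% of Traj counts in libraries 1 to 3. Of the pseudogene rows at 0, Traj51, Traj14, Traj8 and Traj1 are shorter than a read and could not receive a count. Pseudogene rows held 0.272 ± 0.267% of Traj counts. All windows of the 56 rows long enough to hold a read were unique and every posterior SD was 0, so the ambiguity among V copies does not apply here. Counts were low, and the highest row averaged 36.3.

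Traj23 and Traj18 led the J segments. Traj23 had 37, 41 and 31 counts, or 5.27 ± 1.16% of Traj counts, and Traj18 had 37, 36 and 36, or 5.23%. Traj17 had 19, 32 and 45 counts (4.58%), lowest in library 1 and highest in library 3. Traj27 had 34, 31 and 21 (4.16%), Traj12 had 30, 18 and 33 (3.82%) and Traj15 had 32, 16 and 29 (3.63%). Traj22 (3.42%), Traj37 (3.24%), Traj49 (3.18%), Traj30 (3.14%), Traj31 (3.09%) and Traj21 (3.07%) completed the leading 12. The 10 highest rows held 42.4 ± 1.15% of Traj counts, and 13.3 ± 0.577 rows reached 50% of them. Adjacent ranks did not differ beyond the spread between libraries: the ranges of Traj23 and Traj18 overlapped, as did those of Traj27, Traj12 and Traj15.

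Because J rows differ in the number of positions a read can start from, counts per start position give another order. Traj23 remained first with 3.30 counts per position. Traj12 came next with 3.00, then Traj27 with 2.87, Traj31 with 2.71 and Traj21 with 2.67. Traj18, the J of the invariant receptor of natural killer T cells, has 17 start positions, the most of the J genes, and ranked 10 with 2.14. Across the 51 J genes, the mean count and the number of start positions had a Pearson r of 0.009, a description over rows that share the same libraries.

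The distal part of the J array held the lowest share. The 60 rows were cut into 3 groups of 20 by position. The distal group, from Traj61 to Traj42 (65.5 to 44.7 kb upstream of Trac), held 19.2%, 23.1% and 23.5% of Traj counts in libraries 1 to 3. The middle group, from Traj41 to Traj22 (44.2 to 23.2 kb), held 43.7%, 41.6% and 38.1%, and the proximal group, from Traj21 to Traj1 (21.7 to 1.69 kb), held 37.1%, 35.3% and 38.4%. The middle group was the highest in libraries 1 and 2 and the proximal group in library 3. The distal group has fewer gene rows, 15 against 19 and 17, and its gene rows had a median mean count of 9.33, against 16.3 in the middle group and 13 in the proximal one.

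**Figure D4:**
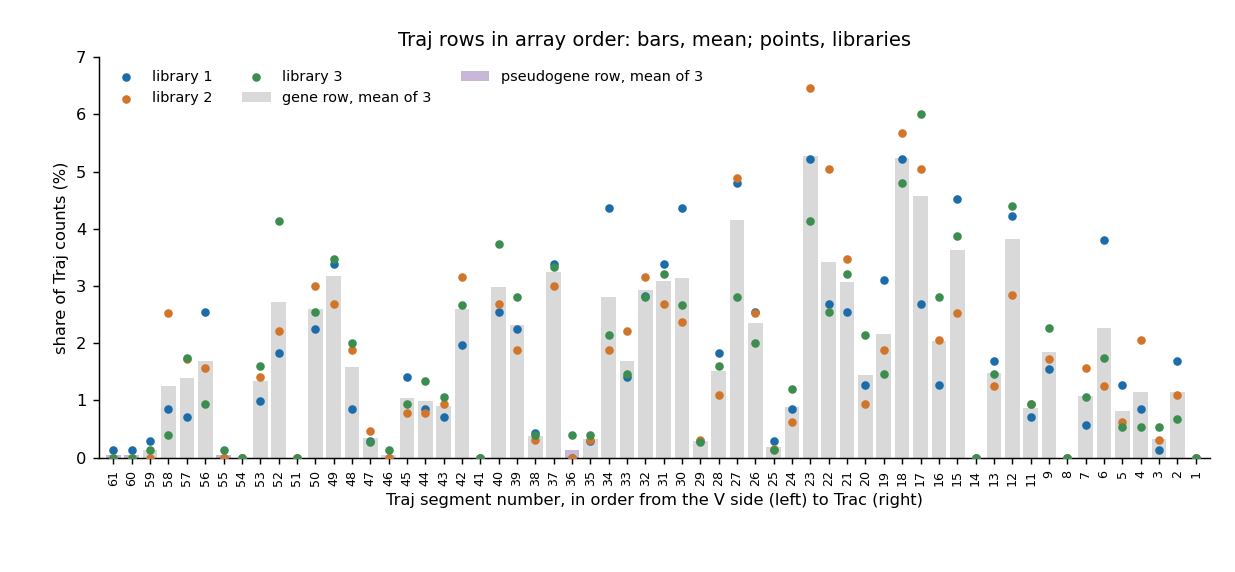
Share of Traj counts (%) of the 60 Traj rows in array order, from the V side on the left to Trac on the right, with bars for the mean of 3 libraries and points for each library. Traj23 and Traj18 have the highest bars, 5.27% and 5.23%, and pseudogene rows lie near 0.

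J genes that hold the conserved motif had the higher median count. The motif was present on the coding strand of 44 of 51 J genes, and their mean counts had a median of 13.7 (0.333 to 36.3). The 7 J genes without it, Traj59, Traj41, Traj33, Traj29, Traj20, Traj19 and Traj3, had a median of 2.33 (0 to 15.0), and the ranges overlapped. Traj33 and Traj19 have no match to these letters and still had 10, 14 and 11 counts and 22, 12 and 11 counts. Traj46 holds the motif and had 0, 0 and 1. The motif was found in 2 of 9 pseudogene rows, and in 2.61% of 141515 M21 transcripts when their first 60 bases were searched on either strand. A match is a description of the sequence and says nothing of whether the segment can be used.

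Of the segments used by invariant T cells, Traj18 was among the leading J segments and the others were not among the leading 12 of their kind. Traj33, the partner of Trav1 in mucosal-associated invariant T cells, made up 1.69 ± 0.443% of Traj counts, and Trav1, with 58, 74 and 46 counts, 0.488 ± 0.145% of Trav counts. Trav1 is unique throughout, and its libraries differed by more than counting noise (adjusted p = 0.00351, chi-square test). Zbtb16, the factor that defines both invariant lineages, was near 0 at 0.34, 0.02 and 0.07 TPM, and Klrb1c, a natural killer receptor, lay at 1.66, 2.67 and 1.92 TPM. These tables do not pair V with J, so whether Trav1 was joined to Traj33, or Trav11 to Traj18, cannot be told.

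The 3 libraries did not hold the same V counts, although they are labelled as technical replicates. A chi-square test of each gene against Poisson counting noise, on rounded expected counts with library sizes from edgeR's trimmed mean of M values (TMM), called 77 of the 103 Trav rows with a mean count of at least 10 (74.8%), at a Benjamini-Hochberg adjusted p under 0.05 over all genes tested. Over all 18253 genes tested, 77.2% were called, so the Trav rows lay near the background. With 1 group, the test speaks of these libraries alone. The rows of an identical pair hold the same expected counts. Each such pair among the tested rows is thus 1 result counted as 2 rows, in every count of Trav rows from expected counts. In 47 of the 77 rows the highest library had at least 2 times the scaled count of the lowest, and 20 were highest in library 1, 35 in library 2 and 22 in library 3. Neither split was made over all genes, so neither is read as a trait of the V rows. For mean counts from 50 to 500, the median ratio of the highest to the lowest library was 1.78 for Trav rows and 1.57 for all genes. Without library 3, 64 of 105 Trav rows were called (61.0%), against 60.9% of all genes. Without library 1 it was 60 of 103 (58.3%), against 57.7%, and without library 2 it was 47 of 102 (46.1%), against 49.1%. With no filter on the mean count, 81 of 114 Trav rows were called, against 50.1% of all genes, and at a mean count of at least 50, 59 of 74 (79.7%), against 81.5%. With total counts in place of TMM, 78 of 103 were called (75.7%), against 77.8%. In the range of mean counts from 50 to 500, 56 of 73 were called (76.7%), against 75.8%.

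Among rows with a mean count of at least 50, the largest ratios were those of Trav7-2 and Trav7d-2, which reach 0 through the division described above. The next were Trav3-4, with 16.2, 5.13 and 174.2 counts and a scaled ratio of 29.3 (adjusted p = 4.87e-54, chi-square test), and Trav2, with 124, 12 and 56 counts and a ratio of 8.92 (adjusted p = 1.58e-18). Library 3 alone was high for Trav3-4 and library 2 alone was low for Trav2. These are differences of well-assigned rows: 80.0% of the windows of Trav3-4 and all those of Trav2 are unique. Trav8d-2, with 33.9, 177.2 and 49.6 counts, and Trav13n-1, with 24.2, 104.5 and 32.2, were both high in library 2 alone, and were chosen for mention after their values were seen. Trav13n-1 has only 17.7% unique windows, and its copy Trav13d-1 was listed at 45.3, 0 and 27.1 counts. Its values thus depend in part on how counts were divided. The summed Trav13-1 set had 288.8, 309.9 and 281.3 counts, a scaled ratio of 1.28. Among the 12 leading rows, Trav14-2 (296.1, 238.1 and 276.6 counts, adjusted p = 0.667) and Trav5-4 (270.6, 246.3 and 242.3 counts, adjusted p = 0.204) did not pass the chi-square test, and the other 10 did. Of those 10, Trav14d-1 and Trav14n-1 are an identical pair and so 1 result, and Trav7d-2 reaches 0 through the division with Trav7-2. With the filter at a mean count of 50, 81.5% of all genes were called, so the 10 are not read as a trait of the leading rows. Trav17, unique throughout, had 167, 129 and 154 counts and did not pass either (adjusted p = 0.632, chi-square test).

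Adding copies together did not make the libraries alike. When rows that share a number were summed, 40 of the 47 sets tested were called (85.1%), against 77.3% of all genes in the same test. Summing raises the count of a set, so the depths differ. With the filter at a mean count of 50, 81.5% of all genes were called, and the 85.1% is not read as an excess. The leading set, Trav14-3 with its d and n copies, had 801.5, 741.9 and 693.0 counts (6.07 ± 0.661% of Trav counts), followed by Trav4-4 (5.998%), Trav7-4 (5.79%), Trav3-3 (5.60%) and Trav9-1 (5.31%). Trav6-6 with its copies had 486.9, 254.3 and 654.0 counts, with library 2 the lowest and library 3 the highest. Of the 6 tested rows that are unique throughout, 5 were called. Shares of Trav rows had a Pearson r of 0.751 for libraries 1 and 2, 0.893 for 1 and 3 and 0.693 for 2 and 3. For the summed sets it was 0.889, 0.928 and 0.854, and for Traj rows 0.810, 0.803 and 0.846. These are correlations across rows, which are not independent replicates.

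A smaller share of J segments than of all genes with mean counts from 10 to 50 was called different between libraries. The test called 5 of the 30 Traj rows with a mean count of at least 10 (16.7%), all of which had mean counts under 50. Of all genes with a mean count from 10 to 50, 68.3% were called, and of the Trav rows in that range 20 of 29 (69.0%). The median mean count in that range was 19.5 for Traj rows, 26.9 for Trav rows and 19.0 for all genes, though the highest Traj row averaged 36.3 and the range runs to 50. The median chi-square statistic was 2.57 for the Traj rows, 16.8 for the Trav rows and 12.8 for all genes, where Poisson noise alone has a median of 1.39. Traj34 had 31, 12 and 16 counts and Traj6 had 27, 8 and 13, both high in library 1. Traj52 with 13, 14 and 31 was high in library 3, Traj22 with 19, 32 and 19 in library 2, and Traj17 was named above. Their adjusted p-values lay between 0.00772 (Traj17) and 0.0242 (Traj22, chi-square test). Without library 1, 1 of 29 Traj rows was called (3.45%, against 57.7% of all genes), without library 2, 2 of 30 (6.67%, against 49.1%), and without library 3, 5 of 29 (17.2%, against 60.9%). No Traj row reached a mean count of 50. In the beta locus the same test called 21 of 22 Trbv rows (95.5%), whose median mean count was 684.5. Of all genes tested, 77.2% were called, and 81.5% with the filter at a mean count of 50. The test called 0 of 4 Trbj rows, whose median mean count was 16.3, and 4 rows are too few to give a share.

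**Figure D5:**
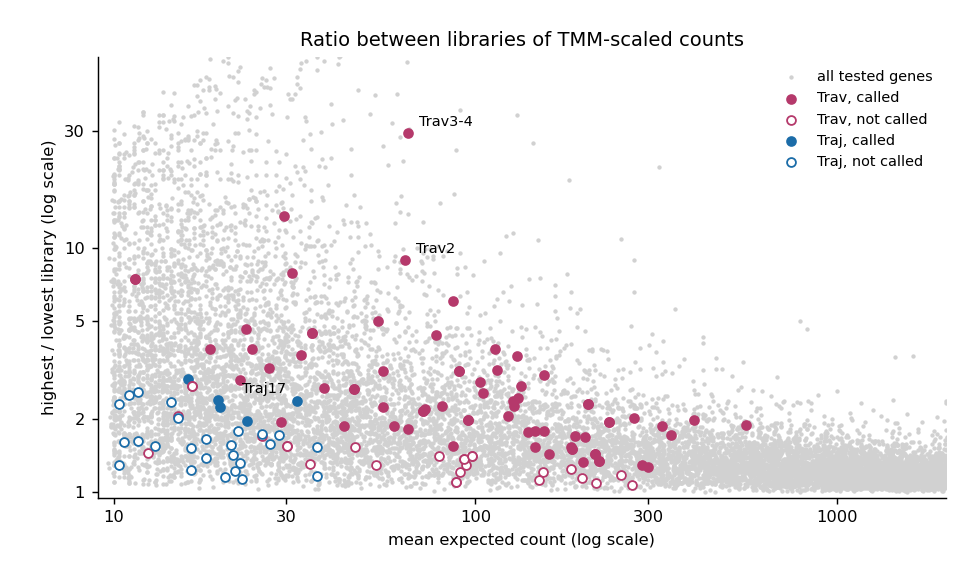
Ratio of the highest to the lowest library in TMM-scaled counts (log scale) against the mean expected count (log scale), for Trav rows (pink), Traj rows (blue) and all genes tested (grey). Filled symbols passed the chi-square test, open ones did not. Rows with a library at 0 and genes beyond the axes are not drawn. Trav3-4 stands at 29.3, while Traj rows stay below 3.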

How the data were processed

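RNA-seq tables of 3 libraries were used. The authors' gene tables on GENCODE M21 (mm10) hold expected counts, posterior mean counts with their SD, effective lengths and TPM, per the file headers. Whole-number counts on annotation M4 were also deposited by the authors, for 99 Trav rows and no Traj row. The sources used here name no aligner, counting program or strand setting. Rows outside genes (0.170% of counts in libraries 1 and 2, 0.218% in library 3) were left out. A share is a row's expected count as percent of all Trav (or Traj) counts of its library. Expected counts were rounded for the chi-square test (mean count of at least 10, TMM sizes of edgeR 4.0.16 in R 4.3.3, adjusted p under 0.05), which was tested on simulated data. The test treats divided counts as if they were counted. DESeq2 1.42.0 gave alternative size factors. Python 3.11.15 did the rest, with scipy 1.17.1, pandas 2.3.3 and numpy 2.4.6. Precision is limited by 635 to 749 Traj counts and 11536 to 13050 Trav counts per library. Errors are SD over libraries labelled technical and say nothing about other mice, and p-values measure only the spread between these libraries.

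Named rows are the 12 of highest share per kind, the 4 Trav rows whose libraries were farthest apart as a ratio (mean count of 50 or more, which no Traj row reached), 6 Trav rows of highest posterior SD with their closest copy, the invariant segments, the 3 highest pseudogene rows, constant genes and list members. Members and lists were chosen with earlier results of these data known. Alternatives were other scalings, posterior means, TPM, M4 counts, other filters, summed copies and leaving out each library. Some members of the marker lists are not reported here.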

Additional observations from a re-analysis of the deposited data

How the results depend on the processing

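The count of Trav rows called stayed between 76 and 81 of those tested under DESeq2 size factors, total counts, the Trav total, posterior means and no filter, and was 59 at a mean count of at least 50. With copies summed it was 40 sets, by construction fewer units. Leaving out 1 library gave 47 to 64 Trav rows and 1 to 5 Traj rows, with the lowest Trav count without library 2 (47) and the lowest Traj counts without library 1 (1) and library 2 (2). The backgrounds were then 57.7%, 49.1% and 60.9% of all genes without libraries 1, 2 and 3. The Traj count was 5 under each scaling and 7 with no filter. The filter at 50 left no Traj row to test.

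Shares changed most in the M4 counts, which hold only 3549, 3309 and 3681 Trav counts. There the share of Trav9-1 was 2.20%, below Trav3-3 (4.64%), Trav14-2 (3.62%), Trav14d-3-dv8 (3.57%) and Trav4-4-dv10 (3.39%), Trav12n-3 was listed at 0, the distal, middle and proximal groups held 12.6%, 20.2% and 67.2%, 15.0 rows reached 50% of counts, pseudogene rows held 0.638% and duplicated rows 82.4%. Rows with no unique window held 1.38% of M4 Trav counts, while over the 99 rows that M4 holds the M21 counts gave 21.5%, 31.2% and 47.3% by group. The order of the 3 groups was the same in both. In TPM, pseudogene rows held 1.10% of Trav and the distal J group 18.9%. No paired analysis was possible because there is 1 group. Single J rows had few counts. Traj30, with 31, 15 and 20 counts, and Traj27, with 34, 31 and 21, were not called different between libraries, and whether depth was the reason was not tested.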

Other observations

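Genes that act only in receptor rearrangement or on the immature receptor were low, and those shared with DNA repair were higher. Rag1 and Rag2, the recombinase, had 51, 0 and 10 counts and 0, 3 and 0 counts. Dntt, which adds bases at the joint, had 13, 44 and 20 counts, and Ptcra, the partner of the beta chain before an alpha chain is made, had 5, 3 and 2. The general end-joining factors were higher, with Xrcc6 at 49.5 ± 3.41 TPM, Xrcc5 at 31.5 ± 2.46, Prkdc at 22.5 ± 0.852, Dclre1c at 16.4 ± 3.28, Xrcc4 at 15.3 ± 1.45, Nhej1 at 11.4 ± 3.59 and Lig4 at 3.21 ± 0.290. Of the 9 members of this list with a mean count of at least 10, 7 differed between libraries by the chi-square test, a share near the 77.2% of all genes, and Xrcc4 and Lig4 did not pass.

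The chains that carry the receptor to the surface were all abundant: Cd3g at 1229 ± 49.8 TPM, Cd3e at 1119 ± 28.6, Cd3d at 714 ± 67.7 and Cd247 at 340.2 ± 18.2. The gamma locus was low, with 1 Trgv row at 0.70 ± 0.534 TPM and 4 Trgj rows at 6.60 ± 1.70 TPM, or 1 to 2 counts per library. Both Trdj rows were at 0 in every library.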
